A study of Mus musculus with 4 samples.

Results

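The peroxisome proliferator-activated receptor gamma gene, Pparg, and 9 genes of fatty acid handling were described in bone marrow-derived macrophages: Fabp4, Fabp5, Cd36, Slc27a1, Slc27a4, Slc27a6, Plin2, Lpl and Acsl1. They were chosen by gene symbol, with earlier results of these data known. All 10 of 10 were found among the 52550 gene IDs of the count files. The study holds 4 RNA-seq libraries, with 1 library in each group. All came from macrophages grown from the bone marrow of C57BL/6 mice aged 8 to 10 weeks. The wild-type cells were left unstimulated or were given 100 ng/mL lipopolysaccharide (LPS, a component of the outer membrane of Gram-negative bacteria) for 12 h, and the miR-7 deficient cells were treated in the same 2 ways. Neither the means by which miR-7 was removed, nor the sex of the animals, nor any pooling of animals is stated. In the values below, the order is always wild-type unstimulated, wild-type LPS, deficient unstimulated and deficient LPS.

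PPARG is a nuclear receptor that binds fatty acid ligands and, paired with a retinoid X receptor, switches on genes of lipid uptake and storage. In macrophages it is known for its part in the uptake of oxidised lipoproteins and in alternative activation by interleukin-4. The other genes follow the path of a fatty acid through the cell. LPL, a secreted lipase, frees fatty acids from lipoproteins; CD36 and the fatty acid transport proteins encoded by the Slc27a genes bring them into the cell; FABP4 and FABP5 carry them in the cytosol; ACSL1 joins them to coenzyme A; and PLIN2 coats the lipid droplets in which they are stored.

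The libraries held 33937823 to 42074624 counts. Levels are given as CPM (counts scaled to the size of the library), adjusted by the trimmed mean of M values (TMM). The 10 macrophage markers examined, among them Adgre1, Csf1r and Cd68, each had at least 10 counts in every library; their summed level was 22500 to 23000 CPM without LPS and 13500 to 15200 CPM with LPS, and 3 of them rose and 3 fell. Of the 6 adipocyte markers, a cell type in which many of these genes are also abundant, Adipoq, Lep, Plin1 and Adrb3 had 0 counts in every library and the summed level was at most 0.127 CPM. Summed endothelial markers, led by Kdr, were at 35.2 to 42.7 CPM without LPS and 172 to 255 CPM with LPS, and dendritic cell markers, led by Ccr7, at 5.62 to 7.16 CPM and 155 to 324 CPM. Fibroblast or stromal markers, led by Pdgfrb with LPS, were at 2.14 to 2.61 CPM and 17.1 to 20.0 CPM, and osteoclast markers at 272 to 308 CPM and 345 to 370 CPM. The part of these marker levels in the LPS results was not tested. The targeted microRNA could not be checked in these poly(A) libraries, in which Mir7-1 had 15, 10, 7 and 7 counts and Mir7-2 and Mir7b had 0. The cells are measured in bulk, so fewer cells of a type and less RNA per cell cannot be told apart. LPS effects were fitted over both genotypes with edgeR's quasi-likelihood test in an additive model (12730 genes tested, Benjamini-Hochberg adjusted p under 0.05), and are given as log2 fold change ± standard error. The words rose and fell refer to that fit. Ratios within 1 pair of libraries carry a 95% interval for counting error, no replicate check and no p.

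Pparg itself fell to about 1 CPM with LPS in both genotypes. The gene (ENSMUSG00000000440.12) lies on chromosome 6 at 115360951 to 115490399 on the plus strand; this and the other gene positions are those of GENCODE M21 on GRCm38, matched by ID. It had 2034, 44, 1551 and 37 counts, which are 43.5, 1.33, 39.5 and 0.988 CPM. The values with LPS lie far below those without, and within each condition the genotypes are close. Pparg fell by 5.17 ± 0.26 on the log2 scale (adjusted p = 0.000173). It was 32.8-fold lower with LPS in the wild-type pair (interval 24.3 to 45.2) and 40.0-fold lower in the deficient pair (28.9 to 57.1), and the log2 difference between these ratios, -0.29, had an interval of -0.92 to 0.35.

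Both fatty acid binding proteins fell with LPS. Fabp4, the adipocyte-type protein that PPARG is known to switch on, had 4306, 214, 4345 and 326 counts, or 92.04, 6.45, 111 and 8.70 CPM. Fabp5, the epidermal-type protein, was far more abundant at 89885, 9984, 68646 and 13377 counts, or 1921, 301, 1749.7 and 357 CPM. For both genes each LPS value lies below each unstimulated one. How many of all tested genes show such a separation was not counted, so here and below it only describes the values. Fabp4 (ENSMUSG00000062515.3, chromosome 3, 10204088 to 10208576, minus strand) fell by 3.75 ± 0.22 (adjusted p = 0.000193), and it was 14.3-fold lower in the wild-type pair (12.4 to 16.4) and 12.7-fold lower in the deficient pair (11.4 to 14.3). Fabp5 (ENSMUSG00000027533.10, chromosome 3, 10012548 to 10016607, plus strand) fell by 2.48 ± 0.22 (adjusted p = 0.000625). Its ratio differed between the pairs beyond counting error, at 6.38-fold lower in wild-type cells (6.25 to 6.51) and 4.90-fold lower in deficient cells (4.81 to 4.99). For Fabp5, 5 pseudogene copies with at least 90% identity over at least 200 bases could share reads with it, and they held 124, 14, 122 and 30 counts in sum.

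**Figure D1:**
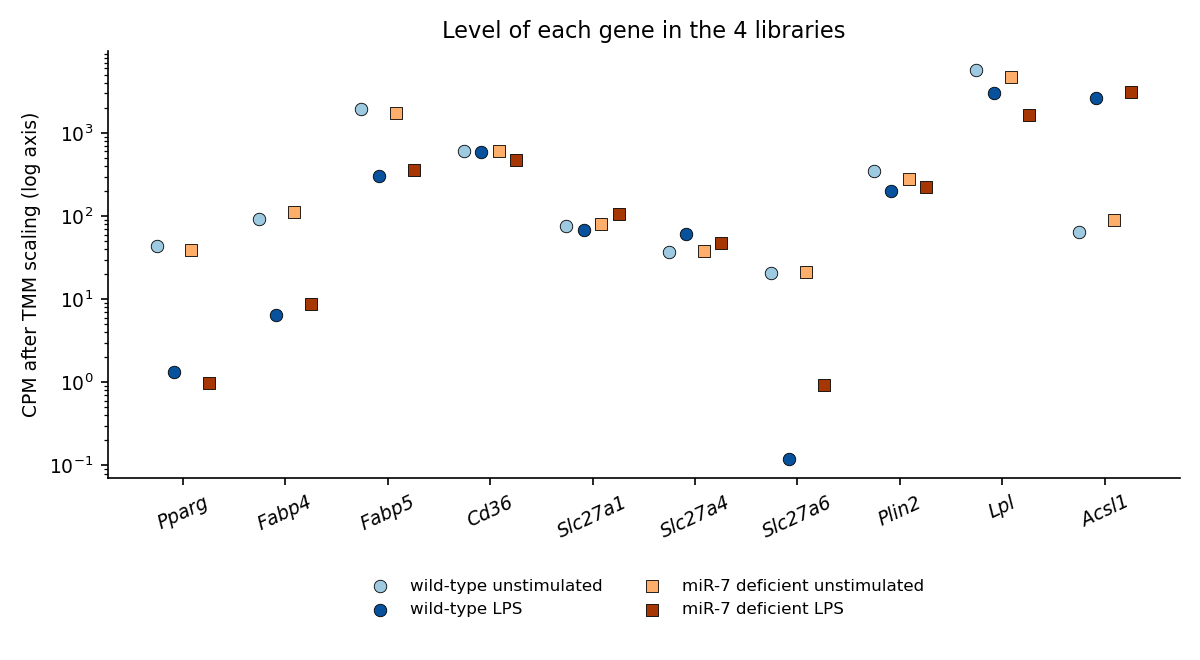
Level of each of the 10 genes in the 4 libraries, as TMM-scaled CPM on a log axis, with 1 point per library and no error bars. Pparg, Fabp4, Fabp5 and Slc27a6 sit lower with LPS in both genotypes, Acsl1 sits higher, and Cd36 stays between 469.98 and 611 CPM.

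The genes of uptake did not move together. Cd36, the scavenger receptor and fatty acid translocase, had 28107, 19491, 23985 and 17602 counts, or 601, 588, 611 and 469.98 CPM. In these values the deficient LPS library is the lowest and the other 3 lie close to each other. The LPS effect on Cd36 (ENSMUSG00000002944.15, chromosome 5, 17781690 to 17888801, minus strand) was -0.21 ± 0.20 and did not pass the test (adjusted p = 0.477). The log2 ratio was -0.03 in the wild-type pair (-0.06 to -0.005) and -0.38 in the deficient pair (-0.41 to -0.35).

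Slc27a1, also called FATP1, had 3555, 2236, 3193 and 4010 counts, or 75.99, 67.4, 81.4 and 107 CPM. The highest value is that of the deficient LPS library and the lowest that of the wild-type LPS library. Its LPS effect (ENSMUSG00000031808.7, chromosome 8, 71568882 to 71587302, plus strand) was 0.11 ± 0.21 (adjusted p = 0.718), from a log2 ratio of -0.17 in the wild-type pair (-0.25 to -0.10) and 0.40 in the deficient pair (0.33 to 0.46). It is the gene of the 10 whose ratios had opposite signs in the pairs; under scaling by total counts the fitted effect was -0.30 and the ratios were -0.61 and 0.02. Slc27a4 (FATP4) had 1752, 2017, 1510 and 1797 counts, or 37.4, 60.8, 38.5 and 47.98 CPM. Both LPS values lie above both unstimulated ones. The effect on Slc27a4 (ENSMUSG00000059316.2, chromosome 2, 29802634 to 29817522, plus strand) was 0.51 ± 0.21 and did not pass (adjusted p = 0.113), with a ratio of 1.62-fold in the wild-type pair (1.52 to 1.73) and 1.25-fold in the deficient pair (1.16 to 1.34).

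Slc27a6 (FATP6), in contrast, was under 1 CPM in both LPS libraries. It had 960, 4, 832 and 35 counts, or 20.5, 0.121, 21.2 and 0.935 CPM. The unstimulated libraries are alike and the deficient LPS library lies above the wild-type LPS library. Slc27a6 (ENSMUSG00000024600.8, chromosome 18, 58556257 to 58612773, plus strand) fell by 5.50 ± 0.64 (adjusted p = 0.00152), and it was 170-fold lower in the wild-type pair (66.2 to 626) and 22.7-fold lower in the deficient pair (16.2 to 32.8). It entered the test through the unstimulated libraries.

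Plin2 and Lpl were lower with LPS in both pairs, and for Lpl the fitted effect passed the test. Plin2 had 16282, 6729, 10884 and 8361 counts, or 348, 203, 277 and 223 CPM. Its LPS values lie below its unstimulated ones, but the unstimulated libraries differ from each other as much as the deficient pair does. The effect on Plin2 (ENSMUSG00000028494.12, chromosome 4, 86648386 to 86670060, minus strand) was -0.55 ± 0.21 and did not pass (adjusted p = 0.0894); the gene was 1.71-fold lower in the wild-type pair (1.67 to 1.76) and 1.24-fold lower in the deficient pair (1.21 to 1.28).

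Lpl was the most abundant of the 10 by counts in 3 of the libraries, with 267209, 100795, 186579 and 62132 counts, or 5711, 3039.9, 4756 and 1659 CPM. It is lower in each LPS library than in both unstimulated ones, and lower in deficient than in wild-type cells in both conditions. Lpl (ENSMUSG00000015568.16, chromosome 8, 68880491 to 68907448, plus strand) fell by 1.21 ± 0.24 (edgeR, adjusted p = 0.011), being 1.88-fold lower in the wild-type pair (1.87 to 1.89) and 2.87-fold lower in the deficient pair (2.84 to 2.89). Over the alternatives its adjusted p in edgeR or DESeq2 ran from 7.49e-06 to 0.213. The call ended when genotype was left out of the edgeR model (adjusted p = 0.066). In that smaller model it also ended without the wild-type unstimulated library (log2 effect -0.96), without the deficient unstimulated library (-1.27) and without the deficient LPS library (-0.78). A stretch of 400 bases of Lpl matched Slc7a11, a cystine transporter gene with 6468, 56318, 13791 and 53523 counts, at 90% identity; whether reads were split between these genes was not tested.

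Acsl1, which makes the acyl-CoA used for storage or oxidation, went the other way. It had 2992, 86660, 3499 and 117950 counts, or 63.95, 2614, 89.2 and 3149 CPM. Every LPS value lies far above every unstimulated one, and in both conditions the deficient library is the higher. Acsl1 (ENSMUSG00000018796.13, chromosome 8, 46471037 to 46536051, plus strand) rose by 5.25 ± 0.24 (adjusted p = 0.000173), 40.9-fold in the wild-type pair (39.4 to 42.4) and 35.3-fold in the deficient pair (34.1 to 36.5). It shares exonic bases with Gm45244, which held 39, 201, 36 and 540 counts.

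Of the 10 genes, 1 rose and 5 fell with LPS, against 18.0% of all tested genes that rose and 16.3% that fell. Since the 10 were chosen with earlier results of these data known, these comparisons with all tested genes are description only. Slc27a6, 1 of the 5 and also among the genes lower in both pairs, entered the test only through the unstimulated libraries, where it is high. The median log2 effect was -0.88 over the 10 genes and -0.04 over all tested genes. Counted within the pairs, with the whole interval beyond 2-fold, 1 gene was higher and 4 were lower in wild-type cells, where 14.8% of all tested genes were higher and 13.3% lower. In deficient cells 1 was higher and 5 were lower, against 12.5% and 11.8%. The further gene was Lpl, which at 1.88-fold lower lay just inside the limit in wild-type cells. The direction was shared by both pairs for 9 genes, of which 7 were lower and 2 higher. How often all tested genes share a direction was not counted, so this describes the 10 genes only. Under scaling by total counts, which lowers every LPS log2 ratio by 0.44 in wild-type and 0.38 in deficient cells, 1 gene rose and 7 fell, with Cd36 (adjusted p = 0.0498) and Plin2 (adjusted p = 0.0176) added; over all genes that scaling gave 1550 that rose and 3840 that fell, against 2297 and 2075 with TMM. Over all alternatives the adjusted p ran from 0.0498 to 0.885 for Cd36 and from 0.0176 to 0.349 for Plin2.

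**Figure D2:**
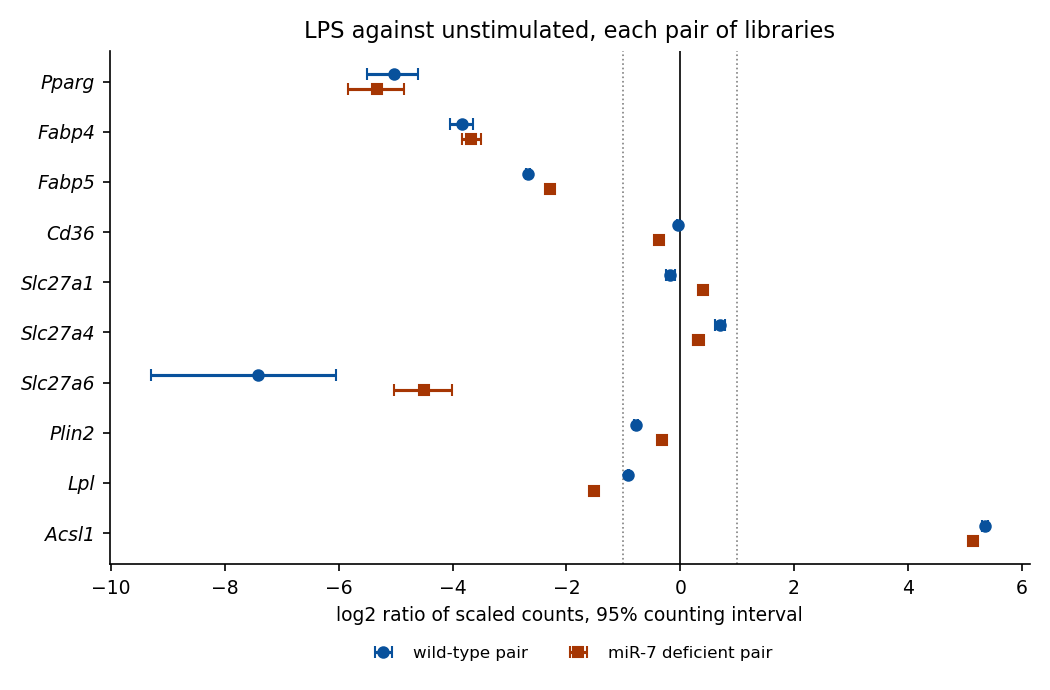
LPS against unstimulated log2 ratio of each of the 10 genes, in the wild-type pair and in the deficient pair, with 95% counting intervals as bars and dotted lines at 2-fold. The 2 pairs lie close to each other for Pparg, Fabp4 and Acsl1 and lie apart for Slc27a6, at 170-fold and 22.7-fold lower.

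In sum the 10 genes took up 1.02, 0.582, 0.899 and 0.536% of all counts, so their share was smaller with LPS, and their make-up was different. Lpl held 64.1, 44.2, 61.2 and 27.5% of their counts, Acsl1 held 0.717, 38.0, 1.15 and 52.3%, and Fabp5 held 21.6, 4.38, 22.5 and 5.93%. Acsl1 thus went from a minor gene of the set to the one with the most counts in the deficient LPS library.

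Between genes, levels were compared as CPM per kilobase of the longest principal transcript. In unstimulated wild-type cells the order was Fabp5 at 1947, Lpl at 1388, Plin2 at 184, Cd36 at 177, Fabp4 at 103, Slc27a1 at 27.2, Pparg at 24.6, Acsl1 at 16.4, Slc27a4 at 9.24 and Slc27a6 at 8.26 CPM per kilobase. In unstimulated deficient cells Cd36 at 179.9 stood above Plin2 at 147, and Acsl1 at 22.9 stood just above Pparg at 22.4, with the other places the same. With 1 library in each group there is no replicate spread to tell neighbours apart. With LPS the wild-type order began with Lpl at 739, Acsl1 at 671 and Fabp5 at 305 CPM per kilobase, and the deficient order with Acsl1 at 808, Lpl at 403 and Fabp5 at 362. In both LPS libraries Pparg at 0.751 and 0.559 and Slc27a6 at 0.0485 and 0.376 CPM per kilobase came last.

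Within their gene families, the genes differed in how far relatives made up the total. Fabp5 held 94.3, 69.5, 92.8 and 72.5% of the CPM per kilobase of the 9 fatty acid binding protein genes, and Fabp4 held 4.97, 1.64, 6.47 and 1.95%. Most of the remainder with LPS was Fabp3, the heart-type protein, at 0.537, 28.5, 0.444 and 24.9%. Fabp3 was at 9.13, 103, 6.98 and 102 CPM and rose by 3.68 ± 0.23 (adjusted p = 0.000217); it shares exonic bases with Zcchc17 and Gm10570. The family sum was 2065, 439, 1911 and 499 CPM per kilobase. Fabp1, Fabp2, Fabp6, Fabp9 and Fabp12 had 0 counts in every library, and Fabp7, the brain-type protein, was at 1.21 to 4.72 CPM (effect -1.30 ± 0.43, adjusted p = 0.0594).

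Among the 6 fatty acid transport proteins, Slc27a1 held 60.8, 60.7, 61.5 and 75.0% of the family sum, which itself was 44.7, 39.7, 47.4 and 51.1 CPM per kilobase. Slc27a6 held 18.5, 0.122, 18.0 and 0.736%, and Slc27a4 held 20.7, 37.8, 20.0 and 23.2%. The sum differed less between the libraries than the share of Slc27a6 did. Slc27a2 and Slc27a5 had 0 counts in every library, and Slc27a3 was at 0.0855 to 1.28 CPM with an effect of 2.32 ± 0.81 that did not pass (adjusted p = 0.0719).

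Acsl1 held 19.4, 83.8, 20.0 and 85.9% of the long-chain acyl-CoA synthetases, whose sum went from 84.6 to 800.2 CPM per kilobase in wild-type and from 115 to 940.3 in deficient cells. Without LPS the larger share was that of Acsl5, at 42.3% in wild-type cells, or Acsl4, at 32.1% in deficient cells. Acsl5, which overlaps exons of Zdhhc6, rose by 1.25 ± 0.19 (152, 357, 147 and 355 CPM, adjusted p = 0.00369). Acsl3, an enzyme of lipid droplet growth that overlaps Utp14b, fell by 1.83 ± 0.25 (39.2, 13.9, 78.9 and 17.6 CPM, adjusted p = 0.00279), a call that ended without the wild-type LPS library (adjusted p = 0.0999, the highest over its alternatives) and without either deficient library. Acsl4, which prefers arachidonic acid, was at 117, 221, 194 and 231 CPM and did not pass (0.58 ± 0.23, adjusted p = 0.0955). Plin2 held 77.1 to 82.8% of the perilipins in all 4 libraries, with Plin3 as nearly all of the rest.

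**Figure D3:**
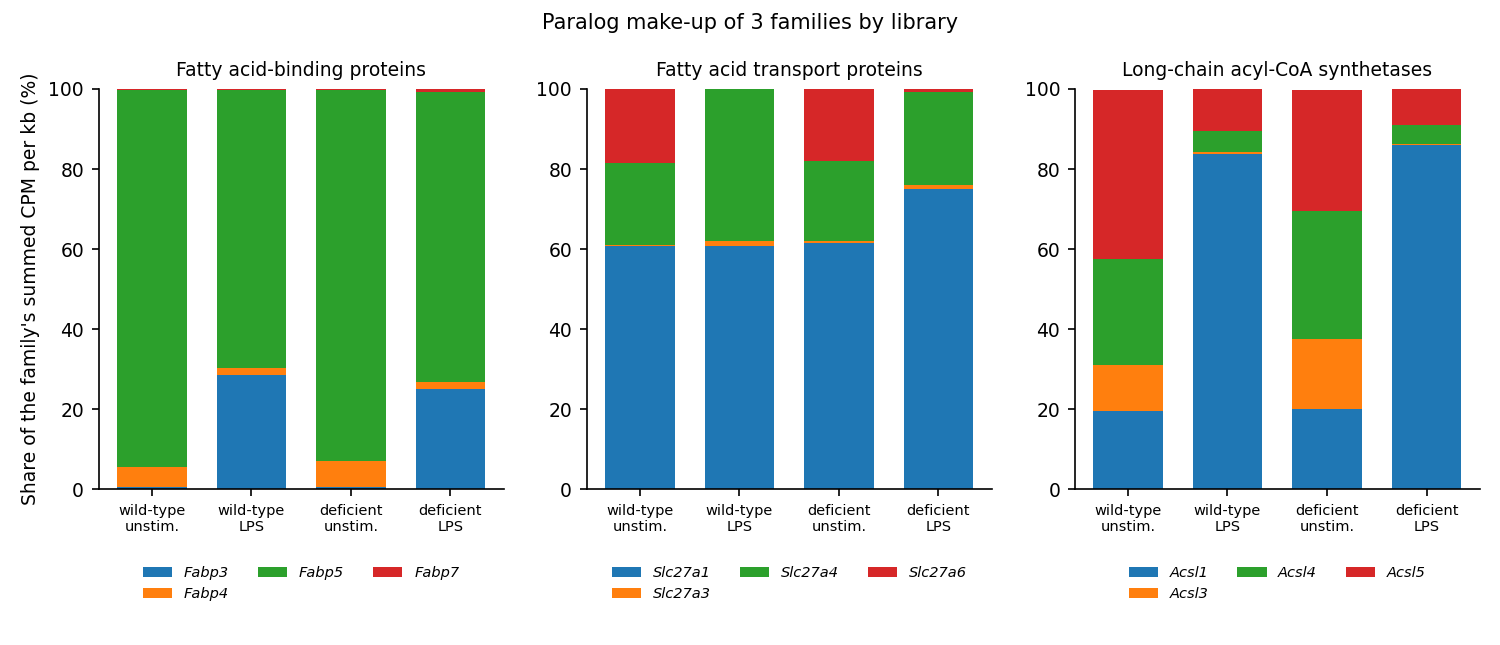
Share of each gene in the summed CPM per kilobase of its family, in percent, for the 4 libraries, as stacked bars for the fatty acid binding proteins, the fatty acid transport proteins and the acyl-CoA synthetases; relatives at 0.5% or less in every library are not drawn. Fabp3 fills 28.5 and 24.9% of its family with LPS, and Acsl1 goes from 19.4 and 20.0% to 83.8 and 85.9% of its own.

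The promoter windows in RefSeq (GRCm38.p6, 250 bases before to 50 after a start) were searched on both strands for AGGTCA, the unit that nuclear receptors bind, and for its direct repeat, 2 copies of AGGTCA with 1 base between, the arrangement used by PPARG and its partner. There were 11 windows for 6 of the 10 genes, namely Pparg, Cd36, Slc27a1, Slc27a4, Plin2 and Acsl1. The single unit was found in 4 windows, 2 of Pparg and 1 each of Cd36 and Plin2, and in 16.3% of all 32851 windows. The repeat with up to 2 mismatches was found in 2 of the 11 windows, those of Cd36 and Plin2, and in 3.86% of all windows; each match had 2 mismatches and lay on the reverse strand, and in Plin2 it holds the single unit. An exact repeat was in none of the 11 and in 0.0396% of all windows. Both windows are shown since they hold the match, with the 2 units in capitals and the sequence on the strand of the gene, chr5:17835847-17836146 (minus strand) for Cd36 and chr4:86670010-86670309 (minus strand) for Plin2. The first base of the match on the strand shown lies 63 bases before the Cd36 start and 225 bases before the Plin2 start.
Cd36: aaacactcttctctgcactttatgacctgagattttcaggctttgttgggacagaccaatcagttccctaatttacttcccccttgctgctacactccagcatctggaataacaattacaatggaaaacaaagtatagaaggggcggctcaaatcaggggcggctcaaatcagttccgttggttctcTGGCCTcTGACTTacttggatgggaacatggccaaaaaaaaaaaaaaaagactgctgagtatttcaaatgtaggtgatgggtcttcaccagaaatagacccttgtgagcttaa
Plin2: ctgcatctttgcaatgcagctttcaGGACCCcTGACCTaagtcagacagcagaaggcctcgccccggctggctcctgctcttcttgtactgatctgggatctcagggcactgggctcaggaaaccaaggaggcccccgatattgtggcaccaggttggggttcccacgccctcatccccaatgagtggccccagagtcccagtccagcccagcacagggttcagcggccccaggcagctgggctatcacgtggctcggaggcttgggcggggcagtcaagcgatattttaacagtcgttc
Neither gene passed the LPS test with TMM scaling. Genes of the 10 without a window could not be compared, so the matches are not set against the LPS effects. A match of letters is no measure of binding.

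No difference between miR-7 deficient and wild-type macrophages passed the test in the 10 genes. In the genotype effect over both conditions, 0 of the 10 passed edgeR's test, 0 had an unadjusted p under 0.05 and 0 passed in DESeq2. The lowest unadjusted p of the 10 in edgeR was that of Lpl, at 0.053. The share of all tested genes under 0.05 without adjustment was not counted. Over all 12730 tested genes 0.55% passed in edgeR, and 147 were higher and 81 lower in DESeq2. The fitted effects farthest from 0, none of which passed, were those of Slc27a6 at 0.85 ± 0.58 (adjusted p = 0.89), Lpl at -0.57 ± 0.24 (adjusted p = 0.67) and Slc27a1 at 0.38 ± 0.21 (adjusted p = 0.83). The model leaves 1 residual degree of freedom, so an effect of genotype seen in 1 condition alone counts as spread.

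Side by side without LPS, none of the 10 genes differed beyond 2-fold between the genotypes, where 4.23% of all tested genes did. With so small a share, finding none among 10 genes does not set them apart. The genotype ratios farthest from 0 were those of Acsl1, at a log2 ratio of 0.48 (0.41 to 0.55), Plin2 at -0.33 (-0.36 to -0.29) and Fabp4 at 0.27 (0.21 to 0.33). Pparg was at -0.14 (-0.23 to -0.04), and Cd36 at 0.03, Slc27a4 at 0.04 and Slc27a6 at 0.05 were nearest to 0.

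With LPS, 1 of the 10 genes, Slc27a6, was beyond 2-fold, against 5.62% of all tested genes. It was 7.75-fold higher in the deficient library, from 4 against 35 counts, with an interval of 2.77 to 30.0. Lpl was 1.83-fold lower (1.81 to 1.85), and Slc27a1 was 1.59-fold higher (1.51 to 1.67). The transport genes did not share a direction. Cd36 at a log2 ratio of -0.32 (-0.35 to -0.29) and Slc27a4 at -0.34 (-0.43 to -0.25) were lower, and Fabp4 at 0.43 (0.18 to 0.69), Acsl1 at 0.27 (0.26 to 0.28), Fabp5 at 0.25 (0.21 to 0.28) and Plin2 at 0.14 (0.09 to 0.18) were higher. The interval of Pparg, -1.10 to 0.24, included 0. The sign of the genotype ratio was the same with and without LPS for 6 genes. The share of all tested genes with 1 sign in both conditions was not counted, so no result is read from it.

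The difference between the LPS ratios of the pairs was beyond 2-fold for Slc27a6 alone, at a log2 value of 2.76 (1.34 to 4.18), and for 6.08% of all tested genes. Next in size were Lpl at -0.61 (-0.63 to -0.59), Slc27a1 at 0.57 (0.47 to 0.67) and Plin2 at 0.46 (0.41 to 0.52). These intervals cover counting error alone, and whether the differences exceed the spread between cultures was not tested.

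**Figure D4:**
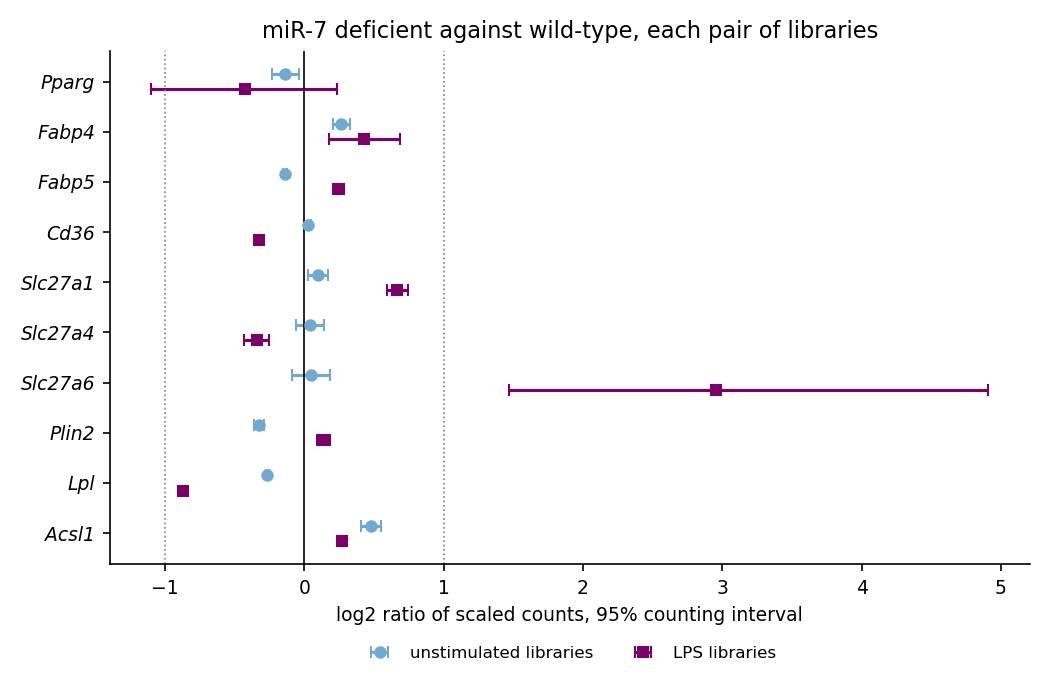
Deficient against wild-type log2 ratio of each of the 10 genes without and with LPS, with 95% counting intervals as bars and dotted lines at 2-fold. Most points lie within 1 log2 unit of 0; the Slc27a6 point with LPS, at 2.95 with an interval of 1.47 to 4.91, stands apart and rests on 4 and 35 counts.

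MicroRNAs of the miR-7 family bind messages through bases 2 to 8, the seed, which is in capitals in the mature sequences (RefSeq, GRCm38.p6). Mir7-1 on chromosome 13 and Mir7-2 on chromosome 7 give the same miR-7a-5p, and Mir7b on chromosome 17 gives miR-7b-5p. They are shown because the seed sets which messages could pair.
mmu-miR-7a-5p: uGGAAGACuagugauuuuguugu
mmu-miR-7b-5p: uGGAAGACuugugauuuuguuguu
Both carry the same seed. Its complement, GTCTTCC, was looked for in the longest annotated 3′ UTR of each gene in GENCODE M21 on the gene's strand. It was present in 1 of the 10, Lpl, at base 220 of 2428, and in 15.4% of the 11303 tested genes with a 3′ UTR, whose median length was 1370 bases. The site in Lpl is followed by an A and is shown with the match in capitals.
Lpl site: catagcagGTCTTCCagcattag
Between the genotypes Lpl stood at log2 ratios, deficient against wild-type, of -0.26 (-0.27 to -0.26) without and -0.87 (-0.89 to -0.86) with LPS. The 3′ UTRs searched in the other 9 genes were 204 bases in Pparg to 1789 bases in Slc27a4, and the lack of a match says only that these letters are not there.

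Around the 10 genes, lists of the wider pathway were counted in the same LPS fit, beside the 18.0% of all tested genes that rose and the 16.3% that fell. The lists, too, were chosen with earlier results of these data known, so their counts are description only. Of the 12 tested of 14 PPAR receptors, partners and coregulators, 3 rose, 5 fell and 4 did not pass, with a median log2 effect of -0.43. Pparg is one of those that fell. Cebpa, the transcription factor that works with PPARG in fat cells, fell by 1.51 ± 0.21 (266, 78.8, 203 and 84.0 CPM, adjusted p = 0.00287). Ppargc1b, a coactivator of mitochondrial genes, fell by 1.57 ± 0.31 (8.81, 2.62, 11.3 and 4.27 CPM, adjusted p = 0.011), though its adjusted p reached 0.129 without the deficient unstimulated library and the call also ended without either wild-type library. Rxra, the main partner receptor, named after its values were seen, fell by 1.44 ± 0.21 (125, 38.5, 107 and 46.8 CPM, adjusted p = 0.0036). Ncor1, a corepressor, did not pass (0.09 ± 0.18, adjusted p = 0.734; -0.32 under scaling by total counts).

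Of the 16 textbook targets of PPARG, 10 were tested, 1 rose, 4 fell and 5 did not pass, with a median of -0.48; 5 of the 16 are among the 10 genes. The one that rose was Acsl1. Ucp2, a mitochondrial carrier, fell by 1.95 ± 0.23 (622, 132, 606 and 192 CPM, adjusted p = 0.00161). Abcg1, a cholesterol exporter, did not pass (-0.42 ± 0.24, adjusted p = 0.226). Pdk4, Adipoq and Plin1 had 0 counts in every library.

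Of the 13 perilipins and lipid droplet proteins, 6 were tested, of which 1 rose, 2 fell and 3 did not pass, with a median of -0.50. Plin3, the widely expressed relative of Plin2, fell by 0.95 ± 0.19 (189.6, 90.4, 159 and 89.5 CPM, adjusted p = 0.0105), a call that ended without the wild-type unstimulated library (adjusted p = 0.0824, the highest over its alternatives). Cideb, a droplet fusion protein, fell by 1.81 ± 0.42 (4.25, 1.09, 4.54 and 1.44 CPM, adjusted p = 0.0187), which ended without either wild-type library and without the deficient unstimulated library (up to 0.101). Hilpda, an inhibitor of droplet lipolysis, was at 12.9, 144, 10.9 and 22.2 CPM, so that the wild-type LPS library stands far above the other 3. It rose by 2.26 ± 0.59 (adjusted p = 0.028), 11.1-fold in the wild-type and 2.03-fold in the deficient pair. That call ended in 6 of 10 alternatives, with adjusted p up to 0.229, among them scaling by total counts, no filter, and leaving out any library but the deficient LPS one. Bscl2, the seipin gene, did not pass (-0.43 on the log2 scale, adjusted p = 0.152).

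Of the 8 tested of 11 lipases and their regulators, 2 rose (Lipe and Lipg), 4 fell (Lpl, Mgll, Abhd5 and Lipa) and 2 did not pass, with a median of -0.65. Lipg, the endothelial lipase and a close relative of Lpl, had 4, 343, 4 and 466 counts, or 0.0855, 10.3, 0.102 and 12.4 CPM, and rose by 6.88 ± 0.45 (adjusted p = 0.000239). It entered the test through the LPS libraries. Mgll, which splits monoglycerides, fell by 2.60 ± 0.44 (336, 103, 418 and 37.2 CPM, adjusted p = 0.00621), which ended without either unstimulated library (adjusted p up to 0.0878). Lipa, the lysosomal acid lipase, fell by 0.98 ± 0.22 (2442, 1414, 2585 and 1146 CPM, adjusted p = 0.0162), which ended without any 1 of the 4 libraries (up to 0.0805). Gpihbp1, which anchors LPL to capillaries, had 0 counts in every library.

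For the fate of the fatty acids, the lists were mixed. Triglyceride synthesis had 11 tested genes of 14, of which 3 rose and 2 fell, and the other 6 missed the threshold; their median was 0.38. Dgat2, which adds the last acyl chain, rose by 3.47 ± 0.40 from a low level (0.534, 7.09, 0.943 and 8.92 CPM, adjusted p = 0.00151). Lpin1, a phosphatidate phosphatase, fell by 2.70 ± 0.33 (59.9, 6.21, 47.1 and 10.7 CPM, adjusted p = 0.00176). Agpat1 (0.38 ± 0.23, adjusted p = 0.248; -0.029 under scaling by total counts) and Gpat4 (0.58 ± 0.20, adjusted p = 0.069), both acyltransferases, did not pass.

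Of 20 tested of 21 genes of mitochondrial and peroxisomal oxidation, 2 rose, 7 fell and 11 did not pass, with a median of -0.19. Acaa2, a mitochondrial thiolase, fell by 2.36 ± 0.30 (40.3, 5.61, 32.6 and 8.76 CPM, adjusted p = 0.00203), and Hadh, a dehydrogenase of the same spiral, fell by 1.93 ± 0.23 (32.3, 7.24, 28.5 and 8.68 CPM, adjusted p = 0.00179). Hadha did not pass (-0.17 ± 0.18, adjusted p = 0.498). Acaa1a, a peroxisomal thiolase that overlaps exons of Myd88, rose by 0.75 ± 0.18 (97.3, 152, 96.3 and 174 CPM, adjusted p = 0.0234). That call ended under scaling by total counts (adjusted p = 0.176, the highest over its alternatives) and without any library but the wild-type LPS one.

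Of 12 tested of 13 genes of fatty acid synthesis and desaturation, 1 rose, 6 fell and 5 did not pass, with a median of -0.84. Elovl6, an elongase, fell by 2.60 ± 0.38 (8.85, 1.15, 7.75 and 1.60 CPM, adjusted p = 0.00369). Me1, malic enzyme, was the one that rose, by 1.98 ± 0.22 (10.9, 47.0, 11.1 and 39.7 CPM, adjusted p = 0.00127). Scd2 (704, 669, 754 and 304 CPM, -0.69 ± 0.32, adjusted p = 0.149) and Acly (316, 251, 296 and 272 CPM, adjusted p = 0.398) did not pass. Both passed under scaling by total counts, and Scd2 also without the wild-type LPS library (log2 effect -1.26, adjusted p = 0.0352, the lowest over its alternatives). In the genotype effect, 0 of the 93 tested genes of all these lists passed in edgeR or in DESeq2. Over all 12730 tested genes, 0.55% passed in edgeR, and 147 were higher and 81 lower in DESeq2. In edgeR 5 of the 93 had an unadjusted p under 0.05, namely Med1, Acadl, Acsl3, Hilpda and Cebpb. Where genotype has no effect, a share of about 0.05 of genes would be under that limit, so these 5 are not read as differences.

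**Figure D5:**
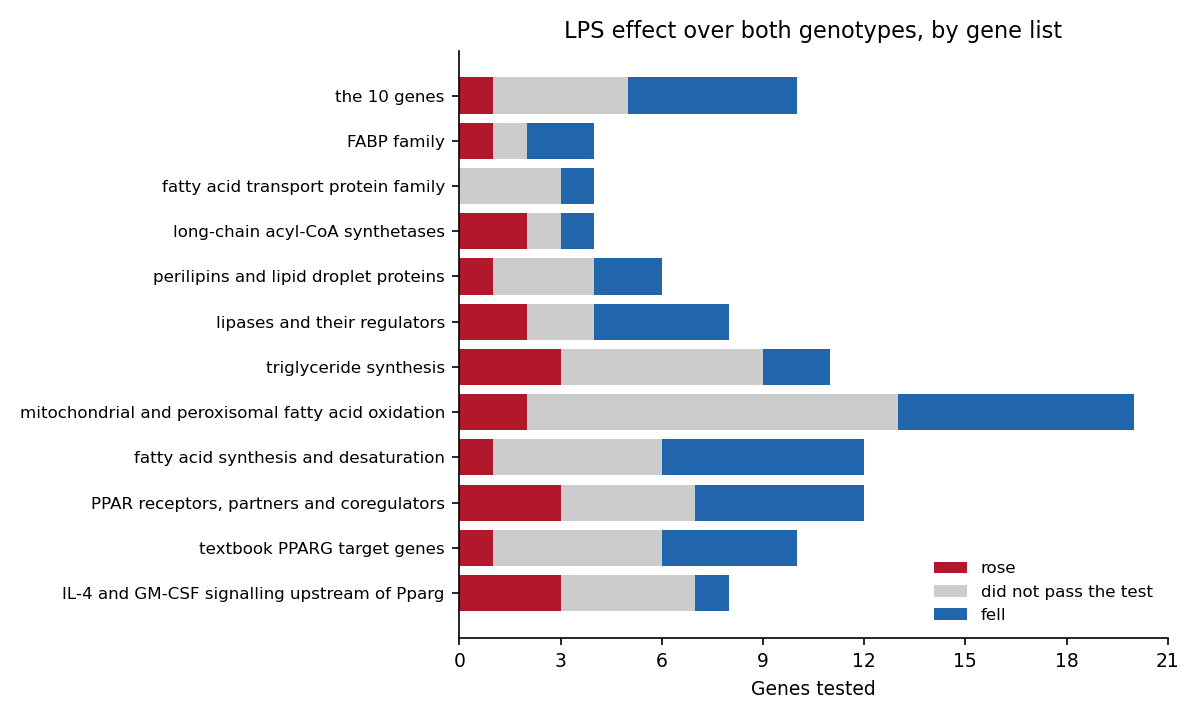
Number of tested genes of the 10 and of each pathway list that rose, fell or did not pass the test in the LPS effect over both genotypes, as stacked bars. In the oxidation list 7 of 20 fell and in the synthesis list 6 of 12 fell; the median log2 effect was -1.89 over the 4 tested fatty acid binding proteins and 0.92 over the 4 tested acyl-CoA synthetases.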

How the data were processed

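Poly(A) RNA-seq counts of 4 libraries of mouse macrophages were used, 1 library in each group, grouped by the genotype and stimulation labels. The authors deposited raw counts per gene, not normalized. The submitters' processing notes name HTSeq and the build mm8, and Casava 1.8.2 and TopHat 2.0.13 are given in the series design. The strand setting, the treatment of multimapping reads and the annotation are not stated. Of 52550 IDs, 52403 matched GENCODE M21, which gave symbols, positions and lengths; 11430 IDs share exonic bases with another gene. The total counts were 40745230, 39178290, 33937823 and 42074624, and 3 counts are 0.0713 to 0.0884 CPM.

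Genes with a CPM of at least 1 in at least 2 libraries were tested (12730). An additive model of LPS and genotype was fitted with edgeR 4.0.16 (R 4.3.3, quasi-likelihood, TMM factors 1.15, 0.846, 1.16 and 0.890, biological coefficient of variation 0.247, 1 residual degree of freedom, prior degrees of freedom 5.18). Standard errors are the effect divided by the square root of F. No group has a replicate, so the p-values rest on how far the LPS effect differs between the genotypes, with the variance shared over genes. The biological coefficient of variation rests on the same differences. Neither measures a spread between replicates, and no label ties the libraries to separate mice. Ratios of 2 libraries carry exact Clopper-Pearson 95% intervals of TMM-scaled counts, and differences of ratios have a normal interval with 0.5 added to each count. Beyond 2-fold means that no part of the interval lies inside that limit. Intervals treat every count as independent and cover counting error only. PCR copies are not independent molecules, so the intervals can be too narrow even for that. The code was tested on simulated data.

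The members and lists were chosen with earlier results of these data known. Named genes were the 10 members and, from each list, the 2 others with the highest mean CPM and the 2 with the largest LPS effect; the 5 genes most like Pparg were those nearest in centred log2(CPM + 1) among tested genes with a mean CPM of 10 or more. Alternatives were DESeq2 1.42.0 size factors and its Wald test, total counts, no filter, CPM of at least 10, models with 1 term, fold limits of 1.5 and 3, and leaving out each library from the model with LPS alone. A comparison of the binding proteins' amino acids was not run. One gene that the naming rule picked is not reported here.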

Additional observations from a re-analysis of the deposited data

Results flagged for a closer look

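Slc27a1, the FATP1 transporter gene, stood out among the 10 genes because the LPS log2 ratio was below 0 in the wild-type pair, at -0.17, and above 0 in the deficient pair, at 0.40. Each direction rests on 1 pair of libraries, and the difference was not tested across samples; its counting interval was 0.47 to 0.67. Under scaling by total counts the ratios were -0.61 and 0.02.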

How the results depend on the processing

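The calls of Pparg, Fabp4, Fabp5, Slc27a6 and Acsl1 in the LPS effect held in all alternatives run, and that of Lpl ended in 4 of 10. For Slc27a6 the highest adjusted p lay just under the limit, and the log2 effect ran from -7.4 to -4.48. Genes that fell numbered 3840 under total counts (2075 with TMM), and leaving out 1 library gave 1088 to 1744 that rose and 588 to 1464 that fell, the fewest without the wild-type unstimulated library. For genotype, 49 genes were higher and 21 lower; DESeq2 size factors gave 27 higher, total counts 31 higher, no filter 18 and 12, genotype alone 0 and 0, and the DESeq2 Wald test 147 and 81. At a limit of 1.5-fold, 2 of the 10 genes were higher and 6 lower (Plin2 and Lpl added to 4) in the wild-type pair. Of all 12730 tested genes, 2896 were higher and 2755 lower there. By genotype with LPS 2 of the 10 were higher and 1 lower, against 794 and 872 of all. In the difference between LPS ratios 1 was lower, against 1138 of all. At 3-fold, Lpl was lost from the 5 lower in the deficient pair (leaving 4, against 826 of all). Slc27a6 was lost at 3-fold from the genotype ratio with LPS and from the difference. That left 0 of the 10 in both, where 140 and 114 of all were higher. The sign turned under total counts for the LPS effect on Slc27a1 (-0.30), Agpat1 (-0.029), Ncor1 (-0.32), Csf2rb (-0.39) and Csf2ra (-0.23) and for Slc27a4 in the deficient pair (-0.059). It also turned for Slc27a1 without the deficient LPS library (leaving out 1 library gave -0.22 to 0.44), for Csf2rb at a CPM of 10 (-0.0023) and without the wild-type LPS or the deficient unstimulated library (leaving out 1 gave -0.071 to 0.14), for Fabp5 by genotype alone (-0.077) and for Cd36 by genotype without LPS under DESeq2 size factors (-0.013); none of these had passed a test. Calls gained under total counts, beside those of Cd36 and Plin2, were Fabp7 (adjusted p = 0.0268), Bscl2 (0.024), Hadha (0.0468), Scd2 (0.0388), Acly (0.0407) and Abcg1 (0.0431), all lower. Scd2 also passed without the wild-type LPS library (-1.26, adjusted p = 0.0352), Fabp7 without the deficient LPS library (0.0498), Gpat4 with LPS alone in the model (0.049) and in the DESeq2 Wald test (0.0458), and Acsl4 in the latter (0.0483). Total counts use another scale by construction, and leaving out a library or dropping a term changes the degrees of freedom; other causes were not tested. No paired analysis was possible because each group has 1 library, so no replicate numbers pair across groups; the comparison within each genotype is in the model through its genotype term. With 1 library in each group, depth limits mainly Slc27a6 and Pparg, at 4 to 44 counts with LPS.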

Other observations

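Genes known to act upstream of Pparg in macrophages, through interleukin-4 and GM-CSF, were also counted in the LPS effect. This list, too, was chosen with earlier results of these data known. Of the 8 listed, all tested, 3 rose, 1 fell and 4 did not pass (edgeR), with a median log2 effect of 0.19. Over all tested genes 18.0% rose and 16.3% fell, with a median of -0.04. Il4ra, the interleukin-4 receptor chain, was at 76.2, 235, 66.1 and 169 CPM in wild-type unstimulated, wild-type LPS, deficient unstimulated and deficient LPS cells and rose by 1.49 ± 0.19 (adjusted p = 0.00217), a call that ended without the deficient unstimulated library (adjusted p = 0.0559, the highest over its alternatives). Il13ra1, which pairs with it to bind interleukin-13, was at 37.7, 258, 68.3 and 167 CPM and rose by 2.03 ± 0.37 (adjusted p = 0.00814), a call that ended without either wild-type library (up to 0.0645). The receptor chains for GM-CSF were abundant and did not pass: Csf2rb was at 2541, 2602, 2306 and 2307 CPM (adjusted p = 0.955) and Csf2ra at 683, 674, 595 and 771 CPM (adjusted p = 0.551). Klf4, a transcription factor of alternative activation, named after its values were seen, fell by 0.91 ± 0.24 (adjusted p = 0.0284).

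The 5 genes whose pattern over the 4 libraries lay nearest to that of Pparg, by Euclidean distance in centred log2(CPM + 1) among 8220 genes with a mean CPM of 10 or more, were Deptor (0.223), Ksr2 (0.229), Cd300lb (0.407), Matk (0.423) and Dhrs3 (0.439). Deptor, an inhibitor of mTOR signalling, was at 60.7, 1.63, 52.7 and 1.47 CPM, and Ksr2, a scaffold of the Ras pathway, at 47.9, 1.42, 39.9 and 1.47 CPM. Both have high values without LPS and values near that of Pparg with LPS. Cd300lb, an activating receptor of myeloid cells, was at 292, 17.6, 262 and 17.1 CPM, Matk, a kinase that restrains Src kinases, at 71.0, 1.81, 67.4 and 1.52 CPM, and Dhrs3, a retinal reductase, at 125, 4.49, 85.8 and 5.29 CPM. With 4 libraries, and with 1 added to each CPM, the distance depends on the level of a gene as well as on its LPS ratio.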
